A study of Mus musculus with 5 samples.

Results

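The 10 genes of hepatic drug metabolism described here were chosen by name from a table of 13966 gene symbols. All were in it (10 of 10), and earlier results of these data were known when they were chosen. They are the xenobiotic receptors PXR (Nr1i2) and CAR (Nr1i3), the P450 reductase gene Por, and the cytochrome P450 genes Cyp2b9, Cyp2b10, Cyp2b13, Cyp2c29, Cyp3a11, Cyp3a13 and Cyp3a25. In the study, ICR mice, an outbred stock, received a chemical probe that fluoresces with fatty acid oxidation (FAO), and their hepatocytes were sorted by that fluorescence to see how cells of low and high FAO differ. A negative and a positive gate came from control hepatocytes. A negative, a positive and a high gate came from hepatocytes labelled "with Bezafibrate", a fibrate that activates the peroxisome proliferator-activated receptors (PPARs). All 5 groups share the strain and the organ, and no age, sex, dose, time or number of mice is stated in the labels. There is 1 library in each group. No difference can therefore be set against a spread between replicates, and treatment and mouse cannot be told apart.

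CAR and PXR are nuclear receptors that sense drugs, steroids and bile acids. CAR waits in the cytosol until a signal such as phenobarbital releases it, whereas PXR is opened by a ligand bound in its own pocket. Both pair with the retinoid X receptor RXR and bind repeats of the half-site AGGTCA beside P450 genes. Cyp2b10 is the classical CAR target of mouse liver, Cyp3a11 that of PXR, and Cyp2c29 responds to both. Cyp2b9 and Cyp2b13 are close relatives of Cyp2b10 and are known as genes of female mouse liver. Por passes electrons from NADPH to microsomal P450 enzymes.

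The libraries held 5056884 to 7146578 reads, recovered as whole numbers from the deposited normalised read counts. Hepatocyte markers (Alb, Apob, Ttr and 5 others) summed to 45409 and 44028 normalised read counts in the control libraries. In the bezafibrate libraries they summed to 104486, 73709 and 81769, highest in bezafibrate negative. Alb alone made up 24303 and 23064 of the control sums and 72188, 48208.5 and 54530 of the bezafibrate sums. The markers did not all rise: Hnf4a had 1032 and 1008 in control against 637.7, 686.2 and 694.7 under bezafibrate. Cps1 had 5602 and 5547 against 6141, 5562 and 6134. Over all libraries the sums were 4.10 to 7.99 for Kupffer cell and macrophage markers, 18.9 to 33.6 for sinusoidal endothelial markers and 2.80 to 13.3 for cholangiocyte markers. Stellate cell markers summed to 103.1 and 112.1 in the control libraries and to 32.2 to 42.6 in the bezafibrate libraries. The hepatocyte sums moved with treatment as the Cyp2c29 and Cyp3a11 values below did, and their part in those values was not tested. RNA make-up also moved with treatment. The ribosomal precursor Rn45s held 34.8% to 36.3% of reads in the control libraries and 10.5% to 18.5% in the bezafibrate libraries. The part of RNA make-up in the differences below was not tested, and in sorted bulk cells fewer cells of a kind and less RNA per cell cannot be told apart. Where 5 values follow each other, the first pair is control (negative, then positive gate) and the other 3 are bezafibrate (negative, positive, then high gate). Folds are plain ratios of the normalised read counts with exact 95% Clopper-Pearson intervals from the reads, which cover counting error only.

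The receptor genes differed in how they stood between treatments. Nr1i3, which encodes CAR (chromosome 1, 171213970 to 171220701), stood at 166.1 and 186.5 normalised read counts under control and at 62.1, 91.3 and 87.1 under bezafibrate. Every bezafibrate value lay below both control values. The fold of bezafibrate over control was 0.374 (95% counting interval 0.333 to 0.420) in the negative gate and 0.489 (0.440 to 0.544) in the positive gate. On the log2(value + pseudocount) scale these were differences of -1.40 and -1.02, and the second was -0.82 when column totals were set equal and -0.99 with a pseudocount 5 times as large, so that it no longer reached 2-fold.

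Nr1i2, which encodes PXR (chromosome 16, 38248323 to 38294824), had 133.2, 125.7, 91.4, 121.7 and 110.3. The bezafibrate negative library was the lowest, and the bezafibrate positive value was close to the control positive one. Its fold was 0.686 (0.616 to 0.765) in the negative gate, and 0.968 (0.868 to 1.08) in the positive gate, where the log2 difference of -0.05 became 0.16 with equal column totals. The nuclear RNA Malat1 was also lowest in bezafibrate negative (15406, against 17208 to 23146 in the other libraries), and its part in the Nr1i2 values was not tested.

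Within a library, the balance of the receptors does not depend on how libraries are scaled. Nr1i3 took 55.5% of the reads of both receptor genes in the control negative library (exact 95% interval 52.9 to 58.1) and 59.7% (57.2 to 62.3) in control positive. Its share was 40.5% (37.6 to 43.4), 42.9% (40.2 to 45.5) and 44.1% (41.6 to 46.7) in the bezafibrate libraries. None of the 3 bezafibrate intervals reached those of the control libraries. Per kilobase of the longest coding transcript, the level of Nr1i3 was above that of Nr1i2 in both control libraries (55.7 against 52.2 and 62.6 against 49.2). Per kilobase of all exons joined, the order in control negative turned, at 50.8 for Nr1i3 against 52.2 for Nr1i2, while the other 4 libraries kept theirs. It was below that of Nr1i2 in the 3 bezafibrate libraries (20.8 against 35.8, 30.6 against 47.7 and 29.2 against 43.2).

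Por (chromosome 5, 135670033 to 135735326) stayed within a narrow range, with 302.0, 317.3, 268.1, 294.1 and 289.7. The bezafibrate values were below the control values by little: the fold was 0.888 (0.829 to 0.950) in the negative and 0.927 (0.865 to 0.993) in the positive gate. With equal column totals these log2 differences of -0.17 and -0.11 turned to 0.06 and 0.10, so the direction for Por depends on the scaling. The 7 P450 genes summed to 5.41 and 5.55 times the normalised read count of Por in the control libraries and to 16, 11.3 and 11.6 times in the bezafibrate libraries. Most of that sum was Cyp3a11 and Cyp3a25.

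**Figure D1:**
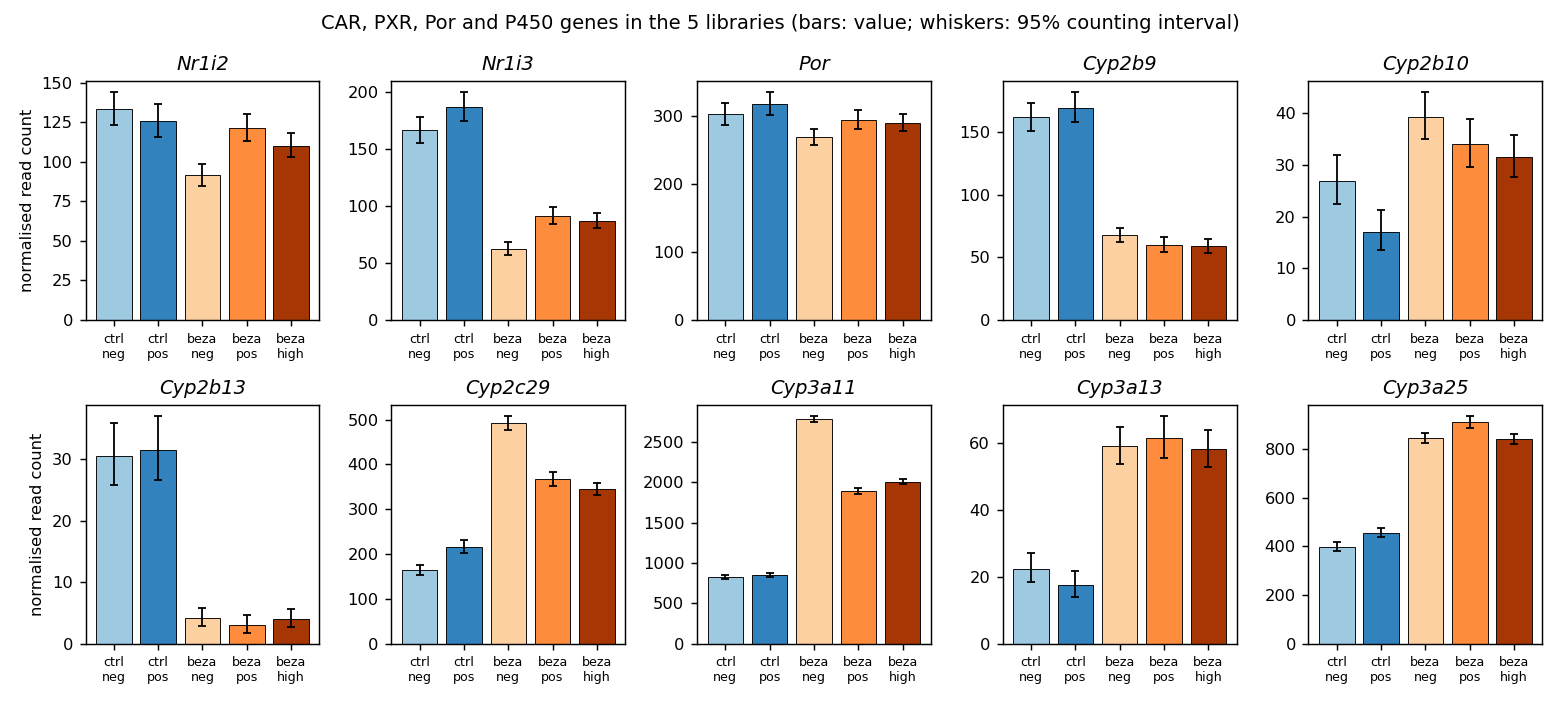
Normalised read counts of the 10 genes in the 5 libraries (ctrl, control; beza, bezafibrate; neg, pos and high, the gates), as bars from 0 with 95% counting intervals as whiskers and 1 library per bar. Nr1i3, Cyp2b9 and Cyp2b13 are lower in the 3 bezafibrate libraries than in both control libraries, Cyp2c29 and the 3 Cyp3a genes are higher, and Por lies between 268.1 and 317.3.

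The 3 Cyp2b genes lie in one stretch of chromosome 7 and did not differ in the same direction. Cyp2b9 (26173411 to 26210661) had 161.6, 169.2, 67.6, 60.1 and 59.2. Cyp2b13 (26061497 to 26096197) had 30.6, 31.5, 4.13, 2.99 and 4.0, from 149, 146, 31, 19 and 30 reads. For both genes the 3 bezafibrate libraries lay close together and far below the controls. The fold of bezafibrate over control was 0.418 (0.373 to 0.468) and 0.355 (0.313 to 0.402) for Cyp2b9 in the negative and positive gates, and 0.135 (0.0886 to 0.200) and 0.0951 (0.0557 to 0.154) for Cyp2b13. Of the 8973 genes with enough signal to be analysed, Cyp2b13 was the 13th lowest in the negative gate and the 5th lowest in the positive gate by log2 difference (-2.62 and -3.02). Its bezafibrate values all lay below the mean of 5.02 normalised read counts needed to be analysed. It was therefore analysed through its control values alone, which favours a low rank.

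Cyp2b10 (25897620 to 25926624) went the other way, with 26.9, 17.0, 39.3, 34.0 and 31.6. The lowest bezafibrate value was above the higher control value, though the counting intervals of bezafibrate high and control negative overlapped. Its fold was 1.46 (1.19 to 1.81) in the negative gate and 2.0 (1.54 to 2.62) in the positive gate. The log2 differences of 0.53 and 0.96 were both short of 2-fold, and the second reached 1.16 with equal column totals. Per kilobase of transcript, the level of Cyp2b10 was below that of Cyp2b9 in every library, at 14.0 against 86.1, 8.89 against 90.2, 20.5 against 36.0, 17.8 against 32.0 and 16.5 against 31.5.

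The make-up of the subfamily therefore differed within libraries. Cyp2b10 took 12.3% (10.4 to 14.4) and 7.82% (6.24 to 9.65) of the reads of the 3 genes in control negative and positive. Under bezafibrate it took 35.4% (32.2 to 38.8), 35.1% (31.3 to 39.0) and 33.3% (29.9 to 36.9). Cyp2b13 took 14.0% and 14.5% in the control libraries and 3.72%, 3.08% and 4.22% in the bezafibrate libraries. Cyp2b9 remained the largest of the 3 throughout, with 60.9% to 77.7%. The 3 transcripts differ little in length, at 1876 bases for Cyp2b9, 1916 for Cyp2b10 and 1875 for Cyp2b13.

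**Figure D2:**
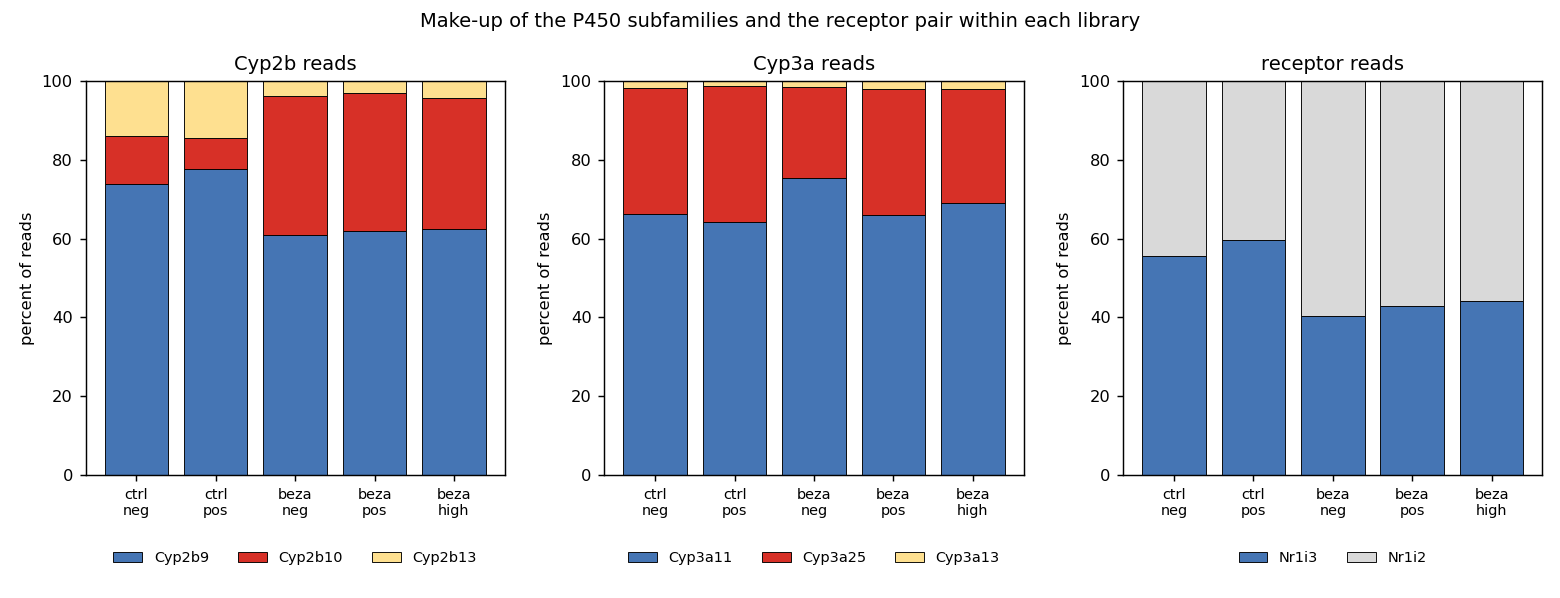
Percent of reads of the 3 Cyp2b genes, of the 3 Cyp3a genes and of the receptor pair that each gene took in a library, stacked to 100% (ctrl, control; beza, bezafibrate; neg, pos and high, the gates). Cyp2b10 takes 7.82% to 12.3% of Cyp2b reads in the control libraries and 33.3% to 35.4% in the bezafibrate libraries, and the Nr1i3 share is below 50% in the 3 bezafibrate libraries.

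The sequence just upstream of these genes is shown because Cyp2b9 and Cyp2b13, which were both lower under bezafibrate, are nearly the same there and Cyp2b10 is not. Each run is the 250 bases before the start of transcription in RefSeq (GRCm38.p6, plus strand, 5′ to 3′), at chr7:26173159-26173408 for Cyp2b9, chr7:26061245-26061494 for Cyp2b13 and chr7:25897408-25897657 for Cyp2b10. Capitals mark the half-site AGGTCA or AGTTCA on either strand, and each half-site of a repeat.
Cyp2b9: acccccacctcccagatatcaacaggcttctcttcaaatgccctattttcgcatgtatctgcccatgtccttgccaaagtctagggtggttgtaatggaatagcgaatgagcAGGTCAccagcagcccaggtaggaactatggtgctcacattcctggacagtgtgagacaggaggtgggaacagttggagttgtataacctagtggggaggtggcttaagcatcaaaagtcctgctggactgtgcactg
Cyp2b13: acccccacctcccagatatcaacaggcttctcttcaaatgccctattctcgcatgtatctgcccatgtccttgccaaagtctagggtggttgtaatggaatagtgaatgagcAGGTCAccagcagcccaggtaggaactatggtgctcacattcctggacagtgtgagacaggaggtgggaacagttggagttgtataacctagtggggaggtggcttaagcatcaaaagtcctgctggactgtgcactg
Cyp2b10: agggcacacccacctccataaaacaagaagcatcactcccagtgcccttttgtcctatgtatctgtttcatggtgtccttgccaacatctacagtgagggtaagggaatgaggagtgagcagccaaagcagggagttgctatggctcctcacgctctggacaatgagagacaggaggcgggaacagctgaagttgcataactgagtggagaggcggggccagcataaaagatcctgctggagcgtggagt
Cyp2b9 and Cyp2b13 were identical at 248 of 250 positions. Counted from 1 at the first base printed, with the base of Cyp2b9 first, the substitutions were T48C and C104T. Cyp2b10 was identical to either at 70.0% of 260 aligned columns. Both genes of the near-identical pair hold 1 AGGTCA, at positions 113 to 118. Of 32851 promoter windows of the same length, 14.0% hold AGGTCA on either strand. The half-site did not go with 1 direction among the genes described here. Cyp2c29 (positions 97 to 102), Cyp3a11 and Cyp3a25, all higher under bezafibrate, hold AGGTCA, and the window of Nr1i3, which was lower, does not. The part of the upstream sequence in the values was not tested. Neither AGGTCA nor AGTTCA is spelled in the window of Cyp2b10, whose known phenobarbital-responsive enhancer lies farther upstream than the bases printed here. GENCODE places the first exon of Cyp2b10 slightly farther upstream than RefSeq does, at 25897620.

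Read assignment among the Cyp2b genes was checked on their transcripts. Of all 100-base windows of the Cyp2b9 transcript, 1.18% occur word for word in a transcript of another gene, all in Cyp2b13. For Cyp2b13 the share was 9.29%, of which the largest part (8.50% of its windows) is shared with the gene model Gm45225, and for Cyp2b10 it was 0%. Along the whole transcript Cyp2b9 and Cyp2b13 were identical at 89.3% of aligned columns. How reads common to several genes were shared out is not stated in the labels, so the Cyp2b13 values are uncertain to that extent.

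Because Cyp2b9 and Cyp2b13 are known from female liver, sex chromosome transcripts are given beside them. The Y-linked genes Ddx3y, Uty, Kdm5d and Eif2s3y were present in all 5 libraries, with Ddx3y at 57.5, 55.6, 56.4, 69.3 and 55.0 and Kdm5d at 34.1, 34.5, 26.0, 29.6 and 27.3. Xist, which silences the second X chromosome in females, had 4.52, 4.53, 6.40, 8.51 and 6.40. The part of either in the Cyp2b values was not tested. Of 20 genes listed as higher in female liver, 13 were analysed. With bezafibrate 4 were at least 2-fold lower in each gate, beside 5.86% (negative) and 2.91% (positive) of all genes. Cyp2b9, Cyp2b13 and Fmo2 were among them, and the first pair belongs to the 10 genes described here. On the higher side 0 passed 2-fold, beside 10.2% and 4.94% of all genes. The list's medians were -0.15 and -0.49, and 6 and 4 of the 13 were above 0. Fmo2, a flavin monooxygenase gene, had 30.8, 27.4, 6.53, 6.62 and 6.13. Other listed P450 genes differed in pattern, with Cyp2a4 at 74.5, 67.0, 67.2, 60.5 and 61.7 and Cyp3a41a, which has the close copy Cyp3a41b, at 163.6, 202.4, 218.5, 144.2 and 146.7.

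Cyp2c29 (chromosome 19, 39269405 to 39330713), an arachidonate and drug oxidase gene, had 163.8, 216.7, 491.6, 366.9 and 345.5. All 3 bezafibrate values lay above both control values. The fold of bezafibrate over control was 3.0 (2.78 to 3.24) in the negative gate and 1.69 (1.57 to 1.83) in the positive gate. The fold in the positive gate was 0.564 times that in the negative gate, with an interval of 0.507 to 0.628 from the reads (normal approximation on the log scale).

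The 3 Cyp3a genes on chromosome 5 all had higher values in the bezafibrate libraries. Cyp3a11 (145854426 to 145879964), the main drug oxidase of this family in mouse liver, had 830.5, 852.8, 2779, 1891 and 2006. Bezafibrate negative stood highest, and all 3 bezafibrate values lay above both control values. The fold was 3.35 (3.24 to 3.46) in the negative gate and 2.22 (2.14 to 2.30) in the positive gate. Its treatment fold in the positive gate was 0.663 times (0.631 to 0.696) that in the negative gate. Cyp3a25 (145977194 to 146009618) had 399.1, 455.9, 846.3, 911.8 and 843.0. Its 3 bezafibrate values lay within a narrower band than those of Cyp3a11, and its folds were 2.12 (2.02 to 2.23) and 2.0 (1.90 to 2.10). In the positive gate the log2 difference of Cyp3a25 was 0.998 and just missed 2-fold. The value in the negative gate, 1.08, was 0.88 when totals were set equal without the 10 most abundant genes.

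Cyp3a13 (137892932 to 137921619), which lies apart from the other Cyp3a genes on the same chromosome, had 22.4, 17.5, 58.9, 61.5 and 58.0. Neither the bezafibrate libraries nor the control libraries differed among themselves by more than counting error. The fold was 2.63 (2.13 to 3.28) in the negative gate and 3.52 (2.76 to 4.53) in the positive gate. Per kilobase of transcript it was the lowest of the 10 genes in both control libraries, at 7.57 and 5.91. In the bezafibrate libraries the lowest level per kilobase was that of Cyp2b13, at 2.20, 1.60 and 2.13.

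Within the Cyp3a reads the make-up moved less than in the Cyp2b genes. Cyp3a11 took 66.3% (65.1 to 67.5), 64.3% (63.1 to 65.5), 75.4% (74.9 to 75.9), 66.0% (65.3 to 66.7) and 69.0% (68.4 to 69.6) of the reads of the 3 genes. Bezafibrate negative stands apart with the largest Cyp3a11 share, and bezafibrate positive overlaps control negative. Of 100-base windows, 0.312% of the Cyp3a11 transcript and 6.05% of the Cyp3a25 transcript occur in another gene, the latter in Cyp3a59. Cyp3a59 itself had 27.3, 24.1, 51.7, 63.2 and 47.4, small beside Cyp3a25.

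The upstream windows of Cyp3a11 and Cyp3a25 are printed because they hold repeats of the half-site in different spacings. They are given on the minus strand, as the genes run, at chr5:145879855-145880104 for Cyp3a11 and chr5:146009619-146009868 for Cyp3a25, with the same source and capitals as above.
Cyp3a11: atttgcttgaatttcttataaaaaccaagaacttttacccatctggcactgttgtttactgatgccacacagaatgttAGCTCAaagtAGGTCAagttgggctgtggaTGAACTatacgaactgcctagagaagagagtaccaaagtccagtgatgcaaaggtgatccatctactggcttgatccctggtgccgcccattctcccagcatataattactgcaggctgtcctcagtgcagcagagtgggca
Cyp3a25: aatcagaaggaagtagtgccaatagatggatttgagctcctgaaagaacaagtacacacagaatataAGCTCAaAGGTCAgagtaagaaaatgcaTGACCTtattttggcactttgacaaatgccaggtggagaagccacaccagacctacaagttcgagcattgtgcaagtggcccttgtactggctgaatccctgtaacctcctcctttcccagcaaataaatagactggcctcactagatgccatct
In Cyp3a11, a direct repeat of AGNTCA with 4 bases between its copies (N is any base) matches at positions 79 to 94, and 0.103% of promoter windows hold such a match on either strand. An AGTTCA on the opposite strand follows at positions 109 to 114. In Cyp3a25, a direct repeat of AGNTCA with 1 base between matches at positions 68 to 80, which 0.183% of windows hold, and an AGGTCA on the opposite strand follows at 96 to 101. The AGGTCA on the printed strand of each gene lies inside its repeat. The direct repeat of AGNTCA with 3 bases between was matched in 0 of the 10 genes. TGNACT followed by AGNTCA with 6 bases between was also matched in 0 of the 10. That pattern allows TGAACT, the opposite strand of AGTTCA, but not TGACCT, that of AGGTCA. An everted repeat with AGGTCA in both copies was therefore not searched for. A match is a description of the letters and not a measured binding site, and GENCODE starts Cyp3a11 farther upstream than RefSeq does, inside the window printed.

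Read together, the 10 genes split evenly between treatments. A set of 5 genes (Cyp2b10, Cyp2c29 and the 3 Cyp3a genes) had all 3 bezafibrate values above both control values, which 35.7% of the 8973 genes analysed did. The other 5 had all 3 below both control values, as did 33.8% of genes. At 2-fold or more on the log2 scale, 4 of the 10 were higher in the negative gate, beside 10.2% of all genes, and 2 in the positive gate, beside 4.94%. On the lower side there were 3 in each gate, beside 5.86% and 2.91% of all genes. In either direction these are 7 and 5 of the 10, beside 16.1% and 7.85%. Because the 10 genes were chosen with earlier results of these data known, these shares describe them and are no test. In both gates at once, Cyp3a11 and Cyp3a13 were at least 2-fold higher (3.95% of all genes were) and Nr1i3, Cyp2b9 and Cyp2b13 at least 2-fold lower (2.13%). Of these, Cyp2b13 was analysed through its control values alone. The median log2 difference of the 10 genes was 0.18 in the negative and 0.36 in the positive gate, beside 0.02 and 0.00 for all genes. Setting column totals equal moved those medians of all genes to 0.25 and 0.20, and the split of all calls from 919 higher and 526 lower to 1444 and 267 in the negative gate, and from 443 and 261 to 820 and 131 in the positive gate. With the 10 most abundant genes left out of the totals, the splits were 611 and 924, and 366 and 330.

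**Figure D3:**
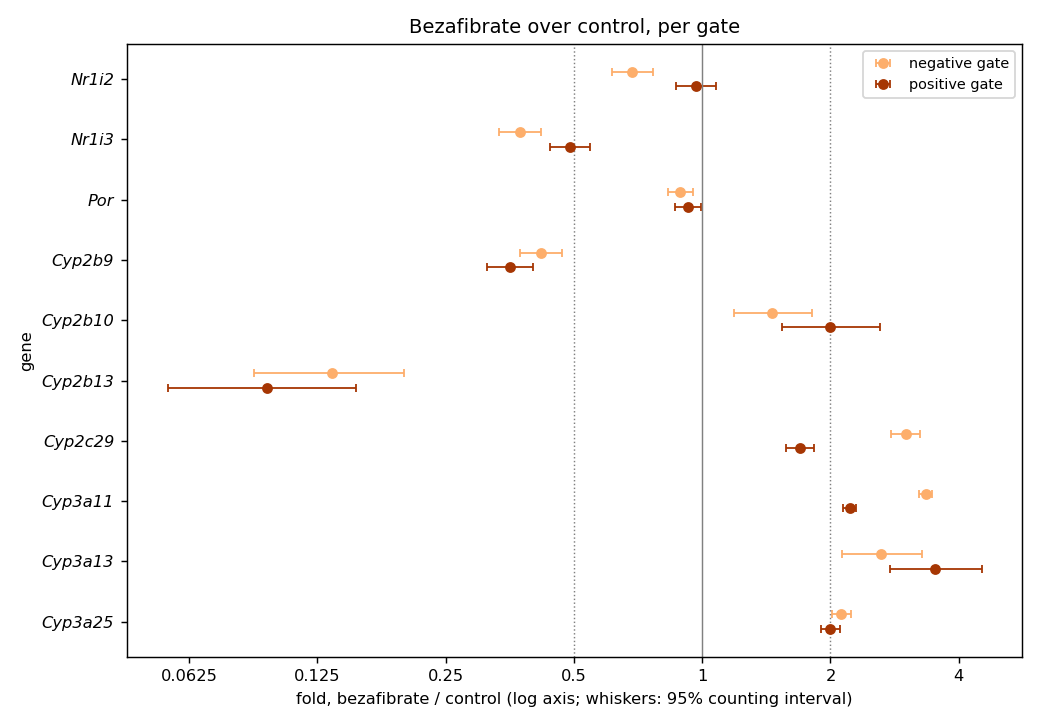
Fold of bezafibrate over control for the 10 genes in the negative and the positive gate (log axis; points are ratios of 1 library to 1 library, whiskers are 95% counting intervals, dotted lines mark 2-fold). Cyp2b13 lies farthest to the left, at 0.135 and 0.0951, while Cyp2b10 lies right of 1 at 1.46 and 2.0.

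An additive model of gate and treatment over the 4 libraries of the negative and positive gates gives a further view. It takes the gate by treatment difference as its error, with 1 residual degree of freedom, and is not a test between replicates. With limma and Benjamini-Hochberg adjustment over 8973 genes, 5 of the 10 genes were called higher (Cyp2b10, Cyp2c29, Cyp3a11, Cyp3a13 and Cyp3a25) and 3 lower (Nr1i3, Cyp2b9 and Cyp2b13). Across all genes 24.5% were called higher and 20.8% lower. Nr1i2 had an adjusted p of 0.0988 (limma) at a log2 difference of -0.29, and Por one of 0.478 at -0.14. edgeR's quasi-likelihood test on the whole reads recovered from the table called 2182 genes higher (24.3%) and 1866 lower (20.8%), and again 5 and 3 of the 10.

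Between the gates of one treatment, 0 of the 10 genes differed by 2-fold in any of the 4 gate comparisons. Of all genes, 0.334% did between the control gates and 0.256% between bezafibrate positive and negative. The shares were 0.145% between high and positive and 0.267% between high and negative, so 0 of 10 does not set these genes apart. By log2 difference among 8973 genes, Cyp2b10 was 103rd lowest between the control gates. Between bezafibrate positive and negative, Nr1i3 was 233rd highest and Cyp3a11 300th lowest, while Cyp3a13 ranked 3609th from the highest. In the control libraries, Cyp2c29 was 1.32-fold (1.20 to 1.45) higher in the positive gate, Cyp3a25 1.14-fold (1.07 to 1.22) and Nr1i3 1.12-fold (1.02 to 1.24). Cyp2b10 was lower there, at 0.633-fold (0.473 to 0.843), from 79 against 131 reads. For the other 6 genes the interval included 1. Genes of pericentral hepatocytes, the zone where CAR and many P450 genes are known to be strongest, were above 0 in 15 of 15 cases in the same comparison, with a median log2 difference of 0.22. Of 14 other Cyp2b, Cyp2c and Cyp3a genes, 10 were above 0, with a median of 0.15. Of all 8973 genes, 4678 were above 0, with a median of 0.01. Periportal genes were above 0 in 3 of 16, with a median of -0.08. Their part in the P450 values was not tested.

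Under bezafibrate, both receptors were higher in the positive than in the negative gate and Cyp3a11, the most abundant P450 gene of the 10, was lower. Nr1i3 was 1.47-fold (1.30 to 1.66) and Nr1i2 1.33-fold (1.20 to 1.48) in the positive gate, while Cyp3a11 was 0.681-fold (0.665 to 0.696) and Cyp2c29 0.746-fold (0.708 to 0.786). Por was 1.10-fold (1.03 to 1.17) and Cyp3a25 1.08-fold (1.04 to 1.12). For Cyp2b9, Cyp2b10, Cyp2b13 and Cyp3a13 the interval included 1. These gate differences and the treatment differences above share libraries: the high Cyp3a11 and Cyp2c29 values and the low receptor values of bezafibrate negative enter both. Pericentral genes were above 0 in 5 of 15 cases here, with a median of -0.14. Of 14 other Cyp2b, Cyp2c and Cyp3a genes, 13 were below 0, with a median of -0.41 beside -0.01 for all genes. Across all 8973 genes, 4630 were below 0. Rn45s held 18.5% of reads in the positive and 10.5% in the negative library of this pair, and its part was not tested.

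The high gate was close to the positive gate. Cyp3a11 was 1.06-fold (1.04 to 1.09) in high over positive, Cyp2c29 0.942-fold (0.890 to 0.996) and Cyp3a25 0.925-fold (0.892 to 0.958), and for the other 7 genes the interval included 1. Set against bezafibrate negative, the high library had Nr1i3 at 1.40-fold (1.24 to 1.58), Nr1i2 at 1.21-fold (1.09 to 1.34) and Cyp2b10 at 0.803-fold (0.674 to 0.956). Cyp3a11 and Cyp2c29 were at 0.722-fold (0.707 to 0.737) and 0.703-fold (0.668 to 0.739). None of the 10 genes was graded by more than counting error in the same direction at both steps from negative to positive to high, other than Cyp2c29, which was lower at each step. The second step of Cyp2c29 was small, at a log2 difference of -0.09. Equal column totals shift this comparison upwards by 0.05, which brings 1 into its interval, so that step depends on the scaling.

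**Figure D4:**
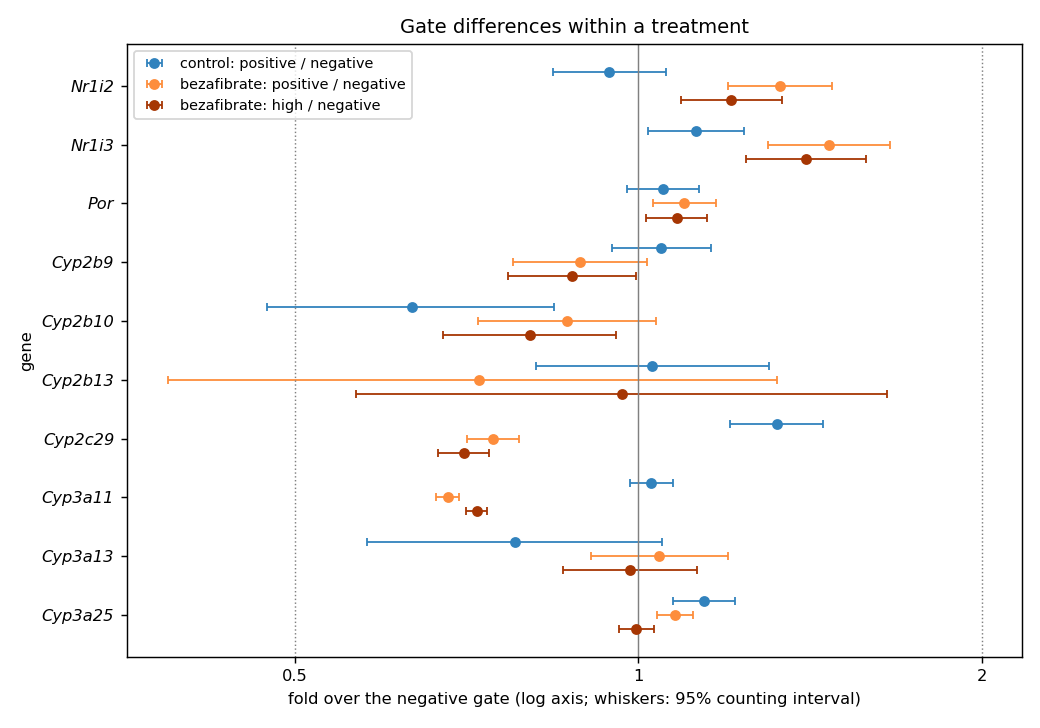
Fold over the negative gate of the same treatment for the 10 genes (log axis; each point is 1 library over 1 library, whiskers are 95% counting intervals, dotted lines mark 2-fold). Cyp2c29 lies at 1.32 in the control libraries and at 0.746 and 0.703 in the bezafibrate libraries, and every point lies inside the 2-fold lines.

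The other genes of the pathway, from lists chosen with earlier results of these data known, are given by their counts at 2-fold beside the 10.2% higher and 5.86% lower of all genes for the negative gate and the 4.94% and 2.91% for the positive gate. Among the 24 partners and regulators of the receptors, 1 was at least 2-fold higher in each gate and 0 lower, with medians of -0.09 and -0.10. The 1 was Ppara, the receptor that fibrates activate, at 284.4, 289.3, 608.6, 657.9 and 655.8. Hnf4a, a factor known to support the Cyp3a and Nr1i3 genes, had 1032, 1008, 637.7, 686.2 and 694.7, which is 0.618-fold (0.594 to 0.643) and 0.680-fold (0.653 to 0.709). Foxa2, a liver transcription factor gene, was 0.516-fold and 0.576-fold, while the glucocorticoid receptor gene Nr3c1 was 1.78-fold and 1.33-fold. Rxra, the shared partner, which was named after its values were seen, had 413.9, 437.2, 449.9, 412.9 and 430.5.

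Of the other Cyp2b, Cyp2c and Cyp3a genes, 14 were analysed, of which 5 were at least 2-fold higher in the negative gate and 2 in the positive gate, and 0 were lower. Cyp2c44 had 97.5, 85.6, 251.3, 201.3 and 212.9 and Cyp2c70 375.1, 414.1, 794.5, 580.8 and 586.0. Cyp2c68 went the other way at 225.8, 225.7, 153.7, 129.6 and 128.6. The Cyp2c genes have many close relatives, and how reads were shared among them is uncertain.

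Conjugation enzymes, which attach glucuronide, sulfate or glutathione to what P450 enzymes oxidise, were mostly on the higher side. Of 39 analysed, 20 were at least 2-fold higher in the negative gate and 11 in the positive gate, and 1 was lower in each, with medians of 1.01 and 0.70. Mgst1, a microsomal glutathione transferase gene, was 4.43-fold (4.20 to 4.67) and 2.53-fold (2.39 to 2.68), and Gstk1 5.65-fold (4.37 to 7.40) and 5.53-fold (4.06 to 7.70). Gstm1, the most abundant of the list, was 1.11-fold and 0.820-fold.

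Genes of haem synthesis and electron transfer lay on both sides. Alas1, the rate-limiting enzyme of haem synthesis and itself known as a target of CAR and PXR, had 1271, 1367, 421.1, 492.7 and 477.8, which is 0.331-fold (0.317 to 0.346) and 0.36-fold (0.345 to 0.376). Hmox1, which breaks haem down, had 174.5, 202.9, 33.1, 34.2 and 39.6. Cyb5a, the cytochrome that hands electrons to some P450 enzymes, was 3.28-fold (2.95 to 3.65) and 2.09-fold (1.89 to 2.32). At 2-fold, 5 of the 16 genes of this list were higher and 3 were lower with bezafibrate in negative cells, beside 1 and 3 in positive cells.

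Among 15 drug and bile transporters, 3 were at least 2-fold higher in the negative gate and 1 in the positive gate, and 0 were lower. Slc10a1, the bile acid uptake transporter of hepatocytes, was 3.69-fold (3.41 to 4.0) and 2.82-fold (2.59 to 3.08), and Abcc2, an efflux pump, 1.15-fold and 1.31-fold. Of 17 further genes known to answer to CAR or PXR, 7 passed 2-fold upwards and 2 downwards in negative cells, and 4 and 1 did so in positive cells. Aldh1a1 was 3.54-fold (3.26 to 3.85) and 2.78-fold (2.55 to 3.03). Gadd45g had 294.4, 299.4, 84.1, 132.4 and 101.3, and G6pc, the glucose-6-phosphatase gene, 0.479-fold and 0.503-fold.

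**Figure D5:**
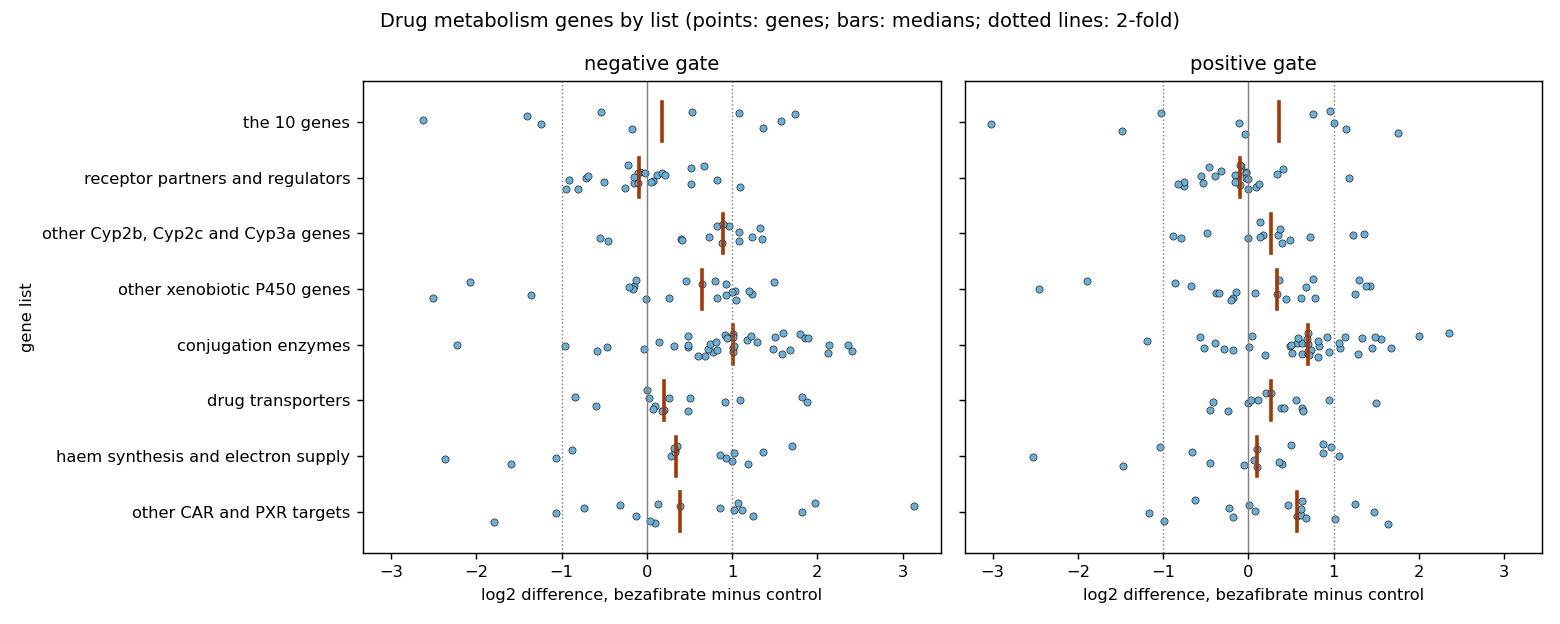
Log2 difference of bezafibrate minus control in the negative gate (left) and the positive gate (right) for genes of each list; each point is a gene, each bar a list median, and dotted lines mark 2-fold. The 10 genes lie on both sides of 0, from -3.02 to 1.76, and conjugation enzymes have the medians 1.01 and 0.70.

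Genes with the profile most like that of 4 of the 10 were found by the root mean square difference of centred log2 values over the 5 libraries, among 4936 other genes. Trim39 (0.050), Rbm15 (0.0616) and Cyp2j9 (0.0622) lay nearest to Nr1i3, where the median gene was at 0.608. Cyp2j9, another P450 gene, had 56.0, 59.9, 21.3, 32.6 and 31.0. Plekha6, Zc3h7a and Lrrc16a lay nearest to Nr1i2 (0.0335 to 0.0357), Coro1b, Iscu and Psmd8 to Cyp2b10 (0.0931 to 0.115), and Cpb2, Degs1 and Elovl2 to Cyp3a11 (0.0180 to 0.0420).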

How the data were processed

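RNA was measured in 5 libraries of sorted hepatocytes, made from total RNA after removal of ribosomal RNA and read from both ends with strand kept, per the labels' protocols. The authors deposited 1 table of normalised signal per gene symbol. The tools named in the submitters' processing notes are Bowtie2, RSEM, edgeR and Trimmomatic 0.36, with build mm10 and no roles. Annotation and normalization: not given in the sources used here. Each column holds whole multiples of its smallest value above 0 (100% of values, tolerance 0.001 reads), and these multiples were used as reads. The libraries held 5056884 to 7146578 of them, which sets the counting intervals.

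Groups came from the labels. Genes averaging at least 5.02 normalised read counts (8973 of 13966, with all 10 genes among them) were compared by log2(value + 1.0035), which understates low genes, with 2-fold as the threshold. The 6 comparisons share libraries. Intervals cover counting error only, since each group has 1 library. As reads carry no molecular identifiers, amplified copies count as separate reads, and the intervals may be too narrow even for that. The additive fit used limma 3.58.1 and, on the reads, edgeR 4.0.16 (R 4.3.3), and other steps Python 3.11.15, numpy 2.4.6, pandas 2.3.3, scipy 1.17.1 and Biopython 1.88. Steps were tested on simulated data. Coordinates and lengths came from GENCODE (GRCm38) and promoters from RefSeq (GRCm38.p6), which held 10 of 10 genes.

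The 10 genes and all lists were chosen with earlier results of these data known. From each list the rule named the 2 genes with the highest mean and the 2 with the largest and the smallest mean treatment difference, of which some are printed and some are not reported here, besides sex-biased genes, sex chromosome transcripts and the 3 nearest profiles of 4 genes. Rn45s, Malat1 and Rxra were chosen after their values were seen. Alternatives were other scalings, pseudocounts, filters and fold thresholds.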

Additional observations from a re-analysis of the deposited data

Results flagged for a closer look

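Cyp2c29 went opposite ways between gates in the 2 treatments. In the control libraries the positive gate was 1.32-fold the negative gate (95% counting interval 1.20 to 1.45), and in the bezafibrate libraries it was 0.746-fold (0.708 to 0.786). The other Cyp2b, Cyp2c and Cyp3a genes leaned the same ways. Of 14, 10 were above 0 between the control gates (median log2 difference 0.15) and 13 below 0 between the bezafibrate gates (median -0.41). Of all 8973 genes, 4678 and 4630 were. The lean was not confined to P450 genes. Of 39 conjugation enzymes it held for 23 and 31, and of 16 genes of haem synthesis and electron transfer for 13 and 12. Periportal genes differed, with 3 of 16 above 0 in control and 11 below 0 under bezafibrate. Each fold is 1 library over 1 library, and the difference was not tested over replicates.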

How the results depend on the processing

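No called difference of the 10 genes changed direction under any alternative run, but the alternatives could hardly have turned one. Equal column totals shifted the treatment comparisons by 0.23 (negative gate) and 0.21 (positive gate) in log2, less than any called difference. Pseudocounts and filters cannot turn a sign. Of 414 recomputed values of the 10 genes, 11 changed sign, all of them short of 2-fold. With column totals set equal, 4 of the 10 genes instead of 2 were at least 2-fold higher in the positive gate. Counts over all genes past 2-fold were 30 between the control gates, 23 for bezafibrate positive against negative, 13 for high against positive, 24 for high against negative, and 1445 and 704 for treatment in the negative and positive gates. In that order of the gate comparisons, a pseudocount 0.1 times as large gave 62, 38, 25 and 46, and one 5 times as large gave 3, 14, 8 and 9, with 943 and 411 for treatment. No filter gave 232, 92, 133 and 133, with 1086 for treatment in the positive gate, and a filter at 20 times the pseudocount gave 3, 8, 4 and 7, with 874 and 405, fewer genes being tested. At 1.5-fold the counts were 303, 422, 159 and 340, with 3599 and 2453. Of the 10 genes, 1 (Cyp2b10) was then lower in the control positive gate and 5 were higher with bezafibrate in the positive gate. The limma treatment term called 4064 genes, and 2697 with the filter at 20 times the pseudocount, which leaves out Cyp2b13. The higher and lower calls between gates also moved with scaling: 13 and 17 became 15 and 11 with equal totals between the control gates, and 6 and 7 became 11 and 7 for high against positive. For high against negative 10 and 14 became 13 and 12, or 14 and 10 without the 10 most abundant genes, which also turned 12 and 11 into 18 and 10 for bezafibrate positive against negative. Causes were not tested. With 1 library per group no replicate could be left out. No paired analysis was possible because the groups have 1 library each and the labels give no replicate numbers. Depth limits Cyp2b13 most, with 19 to 31 reads in the bezafibrate libraries.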

Other observations

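Genes listed as higher in male liver lay mostly on the higher side with bezafibrate. Of 16 analysed, 10 passed 2-fold upwards and 2 downwards in negative cells, and 6 and 3 did so in positive cells, beside 10.2% and 5.86% of all genes in negative and 4.94% and 2.91% in positive cells. The list's medians were 1.09 and 0.88, and 4 of 16 genes were below 0 in each gate. Bcl6, a repressor of female-biased genes, had 33.1, 27.6, 124.6, 135.2 and 110.7 normalised read counts in control negative and positive and in the 3 bezafibrate gates. Mup20, a urinary pheromone carrier gene with close copies, had 16.4, 15.7, 70.9, 60.7 and 64.7. Elovl3, a fatty acid elongase gene, was among those below 0, at 11.5, 13.1, 4.40, 3.94 and 4.8.

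Genes of the aryl hydrocarbon receptor, the other main xenobiotic sensor of liver, were few in number here. Of 6 analysed, 1 was at least 2-fold higher in the negative gate and 0 in the positive gate, and 0 were lower, beside the same shares of all genes. The 1 was Ugt1a6a, which is also counted among the conjugation enzymes above. Some other genes likewise stand in more than 1 list, so the lists are not separate. Cyp1a2, the classical hepatic target of this receptor, had 217.8, 263.0, 260.7, 232.0 and 234.4. Ahr itself was 0.985-fold (0.840 to 1.16) and 0.967-fold (0.821 to 1.14) with bezafibrate.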
